A study of Mus musculus with 15 samples.

Results

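The genes described here are 37 regulators of apoptosis and targets of the transcription factor p53 in the colon of mice fed heme. Genes were matched by symbol, and each was represented by the probe set annotated to that 1 symbol with the highest mean over all arrays. Of the 37 genes 34 had such a probe set, and Trp53, Gdf15 and Bax were not analysed here. Of these 34, 28 had a signal over a floor of 20 (4.32 on the log2 scale) on at least 6 arrays and were tested, among 9257 genes tested of 18194 in all. The other 6, Sesn2, Phlda3, Eda2r, Tnfrsf10b, Bik and Bcl2l15, stayed under this filter.

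RNA came from colon scrapings of male C57BL/6 mice, an inbred strain, aged 11 weeks. For 14 days 9 mice received heme at 0.5 umol per g of feed, and 6 control mice received the same feed without heme. That feed, common to all mice, was low in calcium and drew 40% of its energy from fat. Each mouse was hybridised to its own Affymetrix array, so replicates are animals, and control replicate 5 was not analysed here. Values are log2 expression after GCRMA, and every difference is heme minus control.

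Apoptosis runs along a mitochondrial and a receptor route. In the mitochondrial route BH3-only proteins (BIM, PUMA, NOXA, BID, BAD, BIK) engage the BCL-2 guardians or activate BAX and BAK, which open the outer mitochondrial membrane so that cytochrome c assembles APAF1 with caspase-9. In the receptor route FAS and the TRAIL receptor recruit caspase-8, which CFLAR restrains, and the IAP proteins hold the cascade in check. p53, kept low by the ubiquitin ligase MDM2, raises transcription of several of these genes and of others that slow the cell cycle. In the colon the epithelium is renewed from the crypt base, and old cells are lost at the surface.

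Several properties of the tissue moved with the diet. The marker counts stand beside the 27.2% of all tested genes that were higher and the 26.4% that were lower. The 11 colon epithelium markers were all over the floor, with a mean of 12.65 to 12.85 in heme mice and 12.60 to 12.74 in control mice. Among them Krt20 (0.39), Vil1 (0.18) and Krt19 (0.16) were higher, Epcam (-0.20) was lower, and the others did not pass the test. Of 5 endothelial markers 0 passed the filter. All 11 tested markers of dividing cells rose, with a mean of 9.07 ± 0.15 in heme mice and 7.89 ± 0.42 in control mice (SD, n = 9 and 6). Of 9 smooth muscle markers 5 were tested and all fell, with a mean of 4.51 to 6.36 in heme mice and 5.86 to 9.45 in control mice; Actg2 and Myl9 averaged under the floor in heme mice. Of 12 lymphocyte markers only Gzma and Ccl5 passed the filter, through the controls: Gzma averaged 3.80 in heme mice, under the floor, and 7.38 in control mice, and Ccl5 averaged 3.18 in heme mice, also under it, and 6.03 in control mice. Cd3e and Cd8a were not among the tested genes. None of the 2 tested B or plasma cell, 2 myeloid and 6 stromal markers passed the test. The stromal mean lay between 6.52 and 8.16 in heme mice and between 6.51 and 10.03 in control mice. With that spread the lack of a call does not show that the amounts were equal. The 3′ minus 5′ probe set difference of Gapdh, a sign of RNA quality, lay between -0.15 and -0.05 in heme mice and between -0.14 and 0.03 in control mice. Of 8 tested interferon-induced genes 4 fell, and heme mouse 6 stood apart with a mean of 8.72, against a heme median of 6.67. Control mouse 2 had the highest smooth muscle mean (9.45), and control mouse 4 the lowest mean of the distal Hox genes, 3.19, where the other controls lay between 6.81 and 8.94. With the smooth muscle mean as a covariate 3 members were higher and 9 lower, and the mean of Gzma and Ccl5 correlated with diet at -0.98, so that it and the diet cannot be told apart. The part of dividing cells was not tested. In scrapings fewer cells of a type and less RNA per cell cannot be told apart. Without control mice 2 and 4 and heme mouse 6 the counts were 5 higher and 11 lower.

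Between heme and control colons, 6 of the 28 tested genes rose and 12 fell. A call means an adjusted p under 0.05 in limma, with Benjamini-Hochberg adjustment over the 9257 genes. The 10 others were not called. Over all tested genes 53.6% were called, 27.2% higher and 26.4% lower, so the 64.3% of members called is read against that share, and the 42.9% lower and 21.4% higher likewise. The median difference was -0.13 over the 28 genes, against -0.01 over all tested genes. Bak1 rose most, and the BH3-only gene Bcl2l11 and the death receptor gene Fas fell most. Those 3 genes changed at least 2-fold, 10.7% of the members against 5.47% of all tested genes. The plot of differences by role shows that genes that promote apoptosis moved in both directions, and so did genes that oppose it.

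**Figure D1:**
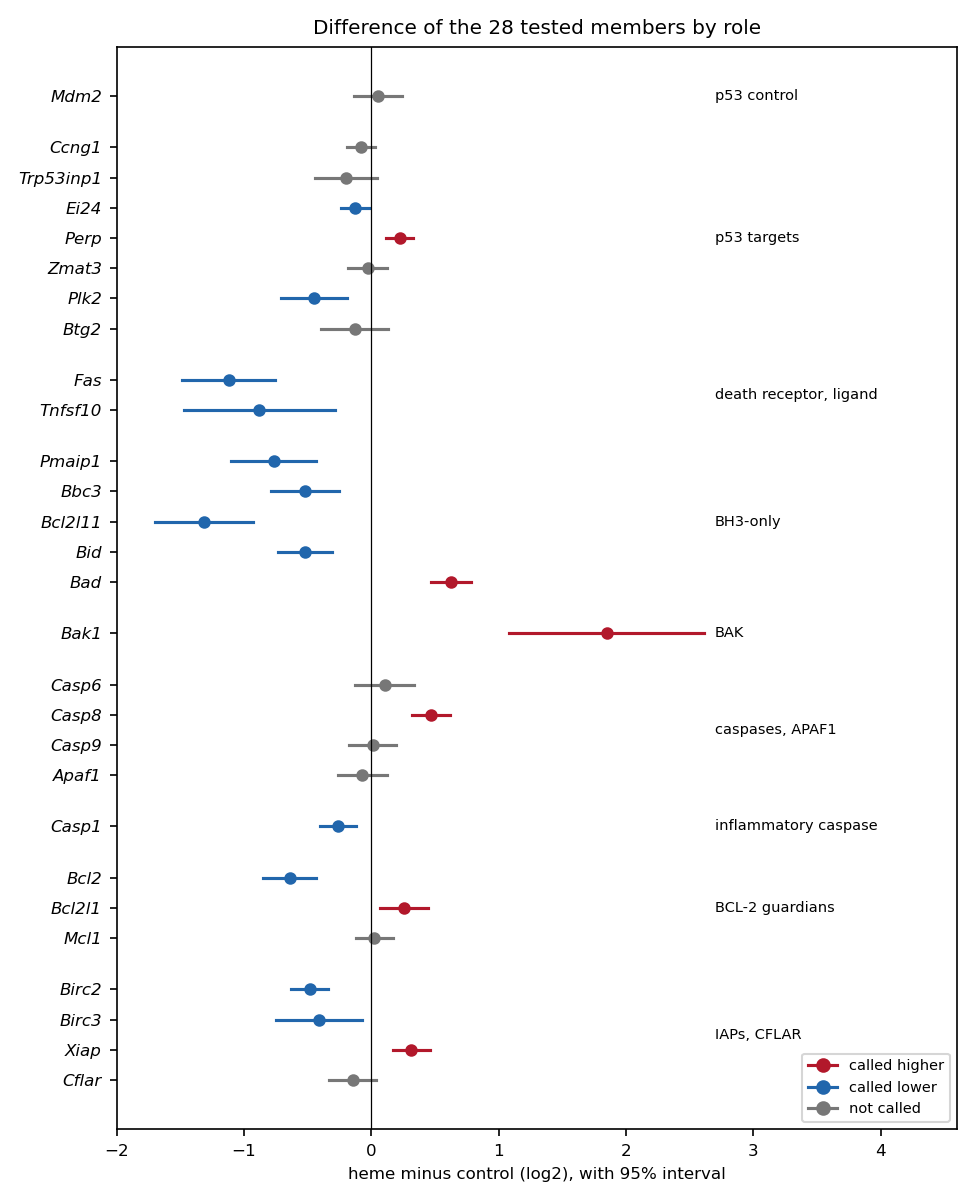
Log2 difference (heme minus control) on the horizontal axis for each of the 28 tested genes, grouped by role, with 95% intervals from limma; colour marks genes called higher, called lower or not called. Bak1 lies farthest to the right at 1.85 and Bcl2l11 farthest to the left at -1.31, and the intervals of the 10 uncalled genes all lie between -0.44 and 0.34.

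p53 itself was not analysed here, and its direct brake did not pass the test. Mdm2 lay between 7.63 and 7.93 in heme mice (median 7.81) and between 7.36 and 8.10 in control mice (median 7.78). The groups overlapped fully, and the difference was 0.05 with a 95% interval of -0.14 to 0.24. A second Mdm2 probe set was called higher (0.28 ± 0.09, SE, adjusted p = 0.0218, limma over single probe sets), so the probe sets of Mdm2 do not give 1 answer.

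Of the 7 tested p53 targets that act in growth control and stress, 1 rose (14.3%), 2 fell (28.6%) and 4 were not called. The median difference of the 7 was -0.13, and of all tested genes 27.2% were higher and 26.4% lower. Perp, a membrane protein of desmosomes that also promotes p53-dependent death, lay between 11.92 and 12.21 in heme mice (median 12.05) and between 11.74 and 11.91 in control mice (median 11.82). All 9 heme mice were above all controls, by a small margin (difference 0.22 ± 0.05, SE, adjusted p = 0.00156, limma). With the smooth muscle mean as a covariate Perp was at 0.19 with adjusted p = 0.0670 (limma). Plk2, a polo-like kinase induced by p53, lay between 4.13 and 4.67 in heme mice (median 4.42) and between 4.54 and 5.26 in control mice (median 4.77). The fall was 0.45 ± 0.12 (SE, adjusted p = 0.00631, limma), and 3 of 9 heme mice were under the floor.

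Ei24, a protein of the endoplasmic reticulum named for its induction by etoposide, differed least among the called genes. It lay between 10.78 and 11.06 in heme mice (median 10.99) and between 11.00 and 11.16 in control mice (median 11.09), a difference of -0.13 ± 0.05 (SE, adjusted p = 0.0421, limma). That call was lost when any 1 of 11 of the 15 mice was left out, where the difference ran from -0.11 to -0.13 and adjusted p reached 0.0925 (limma). Over all 29 alternatives the call of Ei24 was lost in 20. The 4 uncalled targets were cyclin G1 (Ccng1, -0.08, 95% interval -0.19 to 0.03), Zmat3, an RNA-binding zinc finger protein (-0.03, -0.18 to 0.12), the antiproliferative factor Btg2 (-0.13, -0.39 to 0.13) and Trp53inp1, a stress protein that acts with p53 (-0.20, -0.44 to 0.04). These intervals leave room for changes in either direction, none beyond 0.44. Trp53inp1 fell below all controls in 6 of 9 heme mice but was highest of all mice in heme mouse 2 (11.27). Without heme mouse 2, whose omission must enlarge the fall, Trp53inp1 was called lower (-0.26, adjusted p = 0.0374, limma).

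The promoters of these genes were searched for the p53 decamer, the motif that p53 binds as a tandem pair, because p53 targets make up part of the list. Windows from 250 bases before to 50 after a gene's start (RefSeq, GRCm38.p6) were found for 28 of the 34 genes, 37 windows in all. Perp, Zmat3, Trp53inp1, Pmaip1, Tnfrsf10b and Bik had no window and were not searched, nor was any sequence outside the windows. On either strand 4 windows of 4 genes held a decamer, namely Mdm2, Ccng1, Ei24 and the inhibitor of apoptosis gene Birc2. Over all promoters 8.36% of 32851 windows did, and a pair of decamers up to 13 bases apart was in 0 of the 37 and in 24 of all windows. The 3 windows of p53 targets are shown 5′ to 3′ in the direction of transcription, with the decamer in capitals.
Mdm2 (chr10:117710709-117711008, minus strand): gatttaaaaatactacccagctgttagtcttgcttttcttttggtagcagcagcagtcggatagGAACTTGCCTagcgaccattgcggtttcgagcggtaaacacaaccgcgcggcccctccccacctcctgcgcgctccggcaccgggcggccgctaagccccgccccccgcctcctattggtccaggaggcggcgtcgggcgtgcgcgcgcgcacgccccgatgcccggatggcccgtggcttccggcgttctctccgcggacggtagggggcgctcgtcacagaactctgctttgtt
Ccng1 (chr11:40755237-40755536, minus strand): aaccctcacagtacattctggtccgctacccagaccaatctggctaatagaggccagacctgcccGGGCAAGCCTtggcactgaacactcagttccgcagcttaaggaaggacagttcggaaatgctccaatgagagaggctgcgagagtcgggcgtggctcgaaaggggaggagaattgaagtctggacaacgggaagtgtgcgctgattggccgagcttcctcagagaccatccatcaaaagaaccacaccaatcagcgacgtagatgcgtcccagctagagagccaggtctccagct
Ei24 (chr9:36797285-36797584, minus strand): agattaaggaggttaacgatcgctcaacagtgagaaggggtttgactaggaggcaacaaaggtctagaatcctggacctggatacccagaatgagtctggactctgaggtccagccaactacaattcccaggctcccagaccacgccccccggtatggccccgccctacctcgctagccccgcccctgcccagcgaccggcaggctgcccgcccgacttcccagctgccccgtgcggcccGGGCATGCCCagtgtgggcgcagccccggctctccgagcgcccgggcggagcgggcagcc
Of the genes with these windows Mdm2 and Ccng1 were not called and Ei24 was lower by 0.13. A match is a description of the letters and not a binding site.

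Of the receptor route's entry genes in the list, Fas and Tnfsf10 were tested and both fell, where 26.4% of all tested genes did. Fas, the death receptor, lay between 5.12 and 5.77 in heme mice (median 5.32) and between 5.73 and 7.14 in control mice (median 6.52). The single heme mouse within the control range, heme mouse 3 at 5.77, met control mouse 2 at 5.73, the control with the highest smooth muscle mean. Fas was 2.17-fold lower, a difference of -1.12 ± 0.17 (SE, adjusted p = 7.65e-05, limma), and without control mouse 2 and heme mouse 6 the difference was -1.32. Tnfsf10, which encodes the death ligand TRAIL, lay between 4.04 and 6.19 in heme mice (median 4.61) and between 4.93 and 6.17 in control mice (median 5.74). Heme mouse 6, the mouse with the high interferon-induced mean, was the highest of all 15 mice, and 2 heme mice were under the floor. Tnfsf10 fell by 0.88 (SE 0.28, adjusted p = 0.0147, limma). Leaving out heme mouse 6, the highest value, must enlarge the fall, which was then 1.06 (adjusted p = 4.68e-04, limma). With 1 mouse left out at a time the difference of Tnfsf10 ran from -1.06 to -0.77. The TRAIL receptor Tnfrsf10b was under the floor in every mouse, between 2.45 and 2.75 in heme mice and between 2.06 and 2.50 in control mice. Among the further genes that promote apoptosis, and named after their values were seen, entry genes of the TNF and FAS receptors rose: the receptor gene Tnfrsf1a by 0.41 (SE 0.10), and the adaptor genes Tradd by 0.34 (SE 0.08) and Fadd by 0.36 (SE 0.14), with adjusted p no higher than 0.0332 (limma).

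Downstream of the receptors, caspase-8 was higher. Casp8, the initiator of the receptor route, lay between 10.63 and 11.04 in heme mice (median 10.83) and between 10.24 and 10.43 in control mice (median 10.37). No heme mouse lay within the control range, and the difference was 0.47 ± 0.07 (SE, adjusted p = 5.63e-05, limma). Cflar, the inhibitor that competes with caspase-8, was not called on its brightest probe set (-0.15, 95% interval -0.33 to 0.04). A dimmer Cflar probe set was called higher (0.36 ± 0.11, SE, adjusted p = 0.00957, limma over single probe sets), and another was not called (-0.20 ± 0.20), so the direction of Cflar depends on the probe set.

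Of the 5 tested BH3-only genes 4 fell (80%) and 1 rose (20%), beside 26.4% and 27.2% of all tested genes. Their median difference was -0.52, and Bik was not tested. Bcl2l11 encodes BIM, a BH3-only protein that binds every BCL-2 guardian. It lay between 5.10 and 6.13 in heme mice (median 5.67) and between 6.40 and 7.49 in control mice (median 7.11). No heme mouse reached the lowest control, and the fall of 1.31 (SE 0.18, adjusted p = 2.59e-05, limma) was 2.49-fold. Another Bcl2l11 probe set, over the floor in every mouse, was called lower at -1.25.

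Pmaip1 encodes NOXA, which is selective for MCL-1 and is a p53 target. It lay between 7.50 and 8.12 in heme mice (median 7.78) and between 7.98 and 9.11 in control mice (median 8.70), with 6 of 9 heme mice below all controls. Pmaip1 fell by 0.77 (SE 0.16, adjusted p = 8.09e-04, limma). Its lowest control was control mouse 4, whose omission must enlarge the fall, and without control mice 2 and 4 and heme mouse 6 it was 0.97. With 1 mouse left out at a time the difference of Pmaip1 ran from -0.89 to -0.66. With the smooth muscle mean as a covariate the difference was -0.58 with adjusted p = 0.0708 (limma). Bid, which caspase-8 cleaves to link both routes, lay between 7.98 and 8.67 in heme mice (median 8.30) and between 8.71 and 8.89 in control mice (median 8.78). The controls lay close together and all 9 heme mice were below them, with heme mouse 6 the nearest. Bid fell by 0.52 (SE 0.10, adjusted p = 4.50e-04, limma), and a dimmer probe set gave -0.28 without a call.

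Bbc3 encodes PUMA, a p53 target that binds all guardians. It lay between 4.29 and 4.96 in heme mice (median 4.49) and between 4.56 and 5.36 in control mice (median 5.11), close to the floor in both groups. Control mouse 2 was the lowest control, 5 of 9 heme mice lay below it, and the difference was -0.52 ± 0.12 (SE, adjusted p = 0.00258, limma). Bad, whose protein is silenced by growth factor signalling, was the BH3-only gene that rose. It lay between 8.52 and 8.98 in heme mice (median 8.77) and between 7.94 and 8.25 in control mice (median 8.18), with no overlap. The rise of Bad was 0.63 ± 0.07 (SE, adjusted p = 6.21e-06, limma), the smallest adjusted p of the 28 genes, and its second probe set rose by 0.57. Bik lay between 3.15 and 3.98 in heme mice and between 3.77 and 4.35 in control mice, with 2 control mice over the floor, so it was given no test.

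Bak1, the membrane-opening partner of BAX, had the largest difference of the list. It lay between 6.51 and 9.15 in heme mice (median 7.41) and between 4.85 and 6.34 in control mice (median 5.79). The lowest heme mouse, heme mouse 1, was close to the highest controls, and heme mouse 5 was far above the other heme mice. Bak1 rose by 1.85 (SE 0.36, 95% interval 1.09 to 2.61, adjusted p = 5.25e-04, limma), which is 3.60-fold. It also had the widest spread of the 28 genes within both groups (SD 0.80 in heme and 0.65 in control mice), where the median SD was 0.18 in heme and 0.17 in control mice. A second Bak1 probe set, under the filter, averaged 4.24 in heme and 3.30 in control mice. Bcl2l15, a BCL-2 relative with weak killing activity, was under the floor in every mouse, between 1.68 and 2.07 in heme mice and between 1.54 and 2.89 in control mice.

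**Figure D2:**
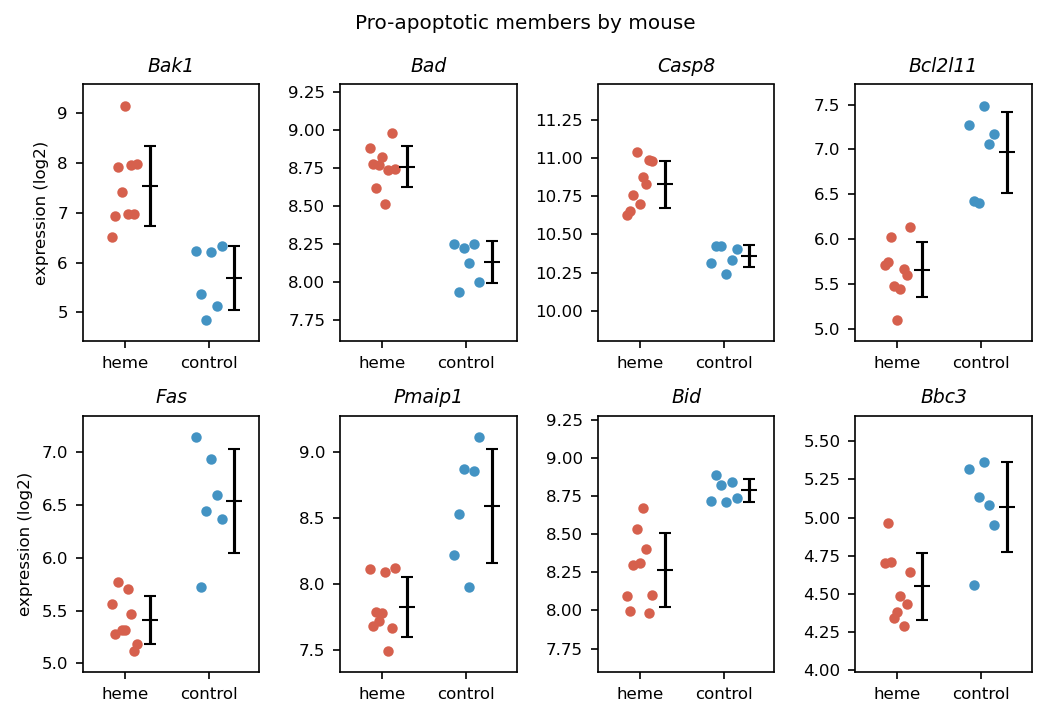
Log2 expression of 8 genes that promote apoptosis, one point per mouse, heme (n = 9) left of control (n = 6), with the mean and SD beside the points; the vertical axis differs between panels. Bak1, Bad and Casp8 have every heme mouse above every control, Bcl2l11 and Bid have every heme mouse below, and Fas, Pmaip1 and Bbc3 overlap.

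Past the mitochondrion, Casp9, Apaf1 and Casp6 were not called. Casp9, the initiator caspase of the apoptosome, differed by 0.01 (95% interval -0.17 to 0.19) and its scaffold Apaf1 by -0.07 (-0.26 to 0.12). Casp6, an executioner caspase, differed by 0.11 (-0.13 to 0.34), between 9.01 and 9.47 in heme mice and between 8.70 and 9.63 in control mice, whose lowest was control mouse 2 and highest control mouse 4. A dimmer Casp9 probe set was called higher (0.45 ± 0.13, SE, adjusted p = 0.00772, limma over single probe sets), so the lack of a call holds for the brightest probe set only. Of the 4 genes in this group, Casp8 included, 1 rose (25%) and none fell, beside 27.2% and 26.4% of all tested genes. Casp1, the caspase that matures interleukin-1 rather than killing through the apoptosome, lay between 11.16 and 11.30 in heme mice (median 11.25) and between 11.16 and 11.66 in control mice (median 11.56). The heme mice lay in a narrow band under 5 of the 6 controls, with control mouse 2 just below all of them, and Casp1 fell by 0.26 (SE 0.07, adjusted p = 0.00395, limma).

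Of the 7 genes that oppose apoptosis, all tested, 2 rose (28.6%), 3 fell (42.9%) and 2 were not called. Their median difference was -0.15, and of all tested genes 27.2% were higher and 26.4% lower. Among the BCL-2 guardians Bcl2 lay between 5.49 and 5.84 in heme mice (median 5.54) and between 5.83 and 6.59 in control mice (median 6.22). Only heme mouse 6 reached the lowest control, and Bcl2 fell by 0.64 (SE 0.10, adjusted p = 7.36e-05, limma). The other tested Bcl2 probe sets, over the floor in 3 and 0 heme mice, are not counted as support. Bcl2l1, which encodes BCL-XL, lay between 5.80 and 6.36 in heme mice (median 5.91) and between 5.59 and 5.95 in control mice (median 5.66). Its rise of 0.26 ± 0.09 (SE, adjusted p = 0.0214, limma) placed 4 of 9 heme mice above all controls, and without control mouse 6 it was 0.23 with adjusted p = 0.0536 (limma). With the replicate number as a block, which rests on the 6 numbers shared by both groups, Bcl2l1 was at 0.24 with adjusted p = 0.102 (limma).

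Mcl1, the short-lived guardian that NOXA binds, was at 12.65 ± 0.09 in heme mice and 12.62 ± 0.16 in control mice (SD, n = 9 and 6) on its brightest probe set. That difference of 0.02 was not called (95% interval -0.12 to 0.17). Of the 5 other Mcl1 probe sets 3 were called lower (-0.36, -0.30 and -0.28), while the others gave -0.24 and 0.14 without a call. The call of Mcl1 thus depends on the probe set.

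The inhibitor of apoptosis proteins split. Xiap, which blocks caspases directly, lay between 11.54 and 11.78 in heme mice (median 11.60) and between 11.02 and 11.48 in control mice (median 11.38). Every heme mouse was above every control, and Xiap rose by 0.31 (SE 0.07, adjusted p = 0.00128, limma). The other Xiap probe set over the floor in every mouse rose by 0.42, and 3 more, over the floor in at most 1 control mouse, are not counted as support. With the smooth muscle mean as a covariate Xiap was at 0.14 with adjusted p = 0.239 (limma). Birc2, the ubiquitin ligase cIAP1 of the TNF receptor complex, lay between 7.93 and 8.26 in heme mice (median 8.02) and between 8.41 and 8.71 in control mice (median 8.54). No heme mouse reached the controls, and Birc2 fell by 0.48 (SE 0.07, adjusted p = 3.75e-05, limma). Its relative Birc3 (cIAP2), an NF-kB target, lay between 8.33 and 9.08 in heme mice (median 8.58) and between 8.44 and 9.70 in control mice (median 9.12). The groups overlapped widely, and the fall of 0.41 (SE 0.16, adjusted p = 0.0402, limma) was lost when any 1 of 9 mice was left out, with adjusted p up to 0.110 (limma).

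**Figure D3:**
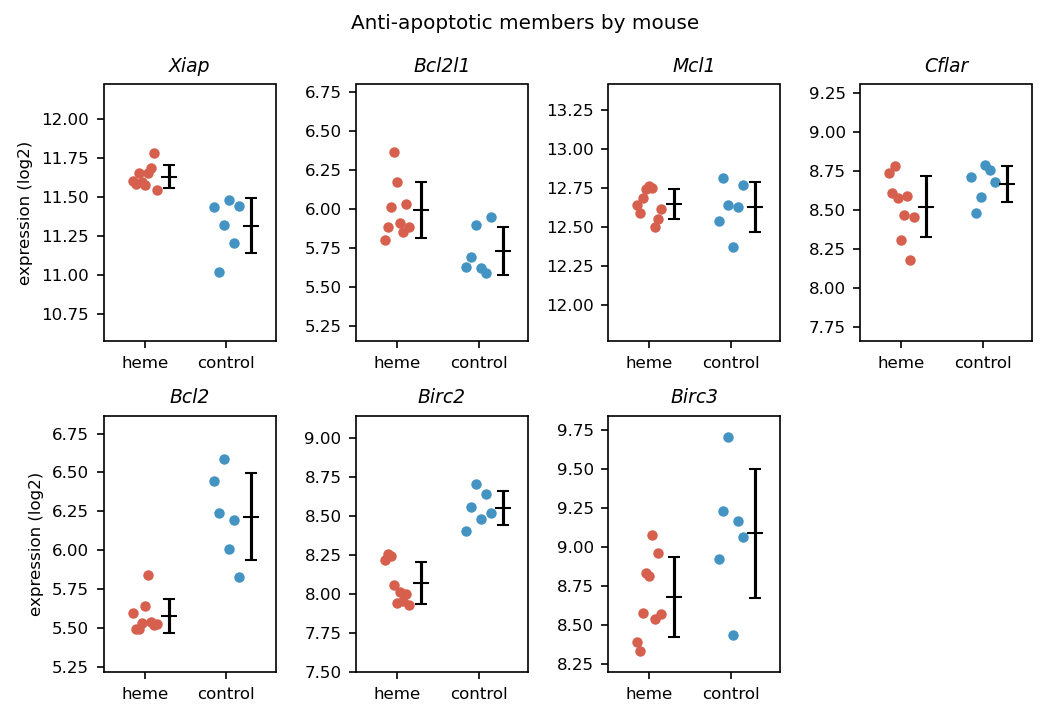
Log2 expression of the 7 genes that oppose apoptosis, one point per mouse, heme (n = 9) left of control (n = 6), with the mean and SD beside the points; each vertical axis spans the same number of log2 units. Xiap has every heme mouse above every control and Birc2 every heme mouse below, while the heme and control points of Mcl1 and Cflar mix.

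The genes were also set apart by what they do, beside the 27.2% higher and 26.4% lower of all tested genes. Of 12 tested genes that promote apoptosis 3 rose (25%), 6 fell (50%) and 3 were not called. The 7 that oppose it had 2 rises (28.6%) and 3 falls (42.9%). The median difference was -0.29 for the first and -0.15 for the second, and whether the groups of genes differ was not tested. Averaged over its tested genes, the promoting side lay between 7.15 and 7.37 in heme mice and between 7.13 and 7.60 in control mice, the lowest of which was control mouse 2. The opposing side lay between 8.65 and 8.82 in heme mice and between 8.74 and 9.06 in control mice. Both averages overlap between the diets. On the opposing side only control mouse 4, at 8.74, lay within the heme range, and the other controls were at 8.86 or above. Over all 28 genes the heme mice lay wholly above the controls in 5 and wholly below in 3, that is 17.9% and 10.7%, against 11.2% and 8.93% of all tested genes.

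**Figure D4:**
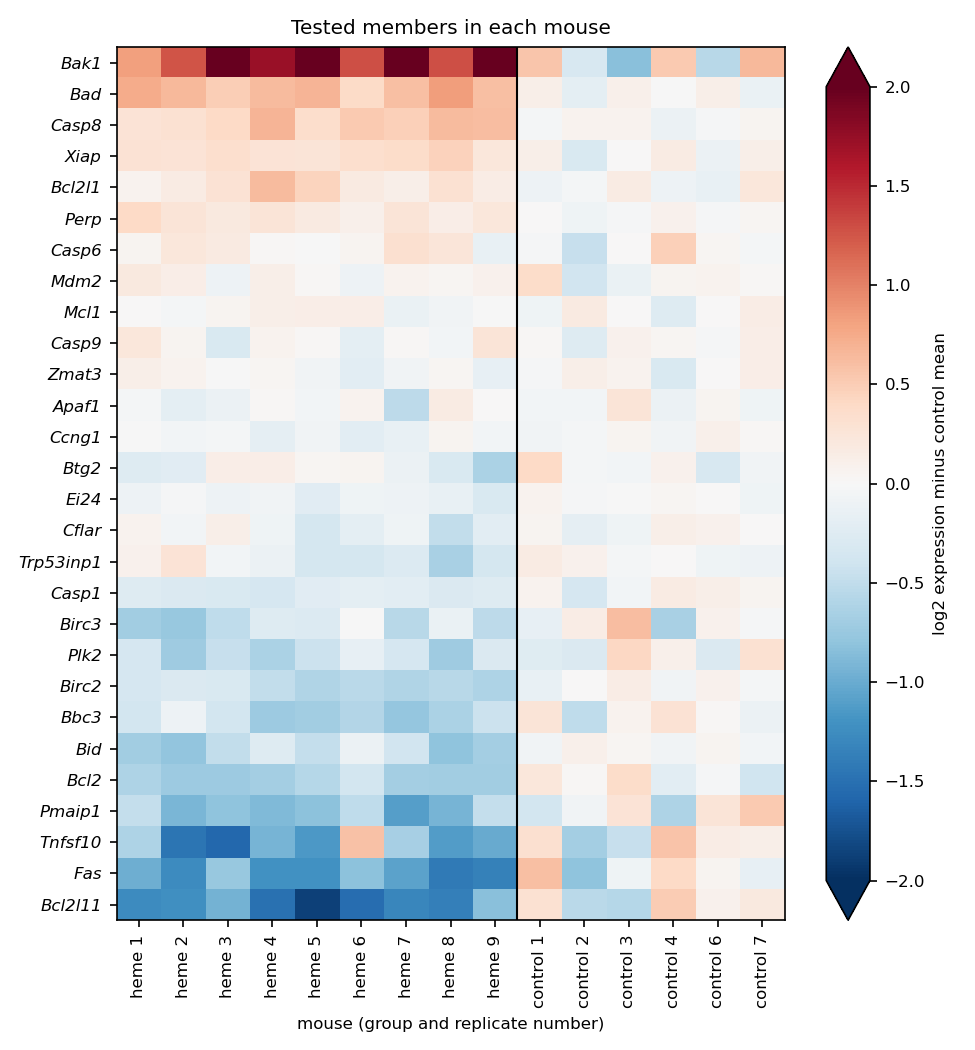
Each row is 1 of the 28 tested genes, each column 1 mouse (heme left, control right), and the colour is log2 expression minus the mean of the controls, with colours capped at 2 log2 units. Tnfsf10 in heme mouse 6 stands out as high among the heme mice, and Bak1 is high in all heme mice and highest in heme mouse 5 at 9.15.

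The 34 genes were read by 82 probe sets, of which 52 were over the floor on enough arrays. Tested singly, 14 were higher and 18 lower, and over all single probe sets 50.4% were called. For 13 genes more than 1 probe set was tested. In 9 of them all differences had 1 sign, and in Mcl1, Cflar, Apaf1 and Btg2 they had both. No gene had a probe set called higher and another called lower. Of the called probe sets 6, in Xiap, Bcl2 and Bcl2l11, were over the floor in at most 3 mice of the lower group and passed the filter through the other.

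**Figure D5:**
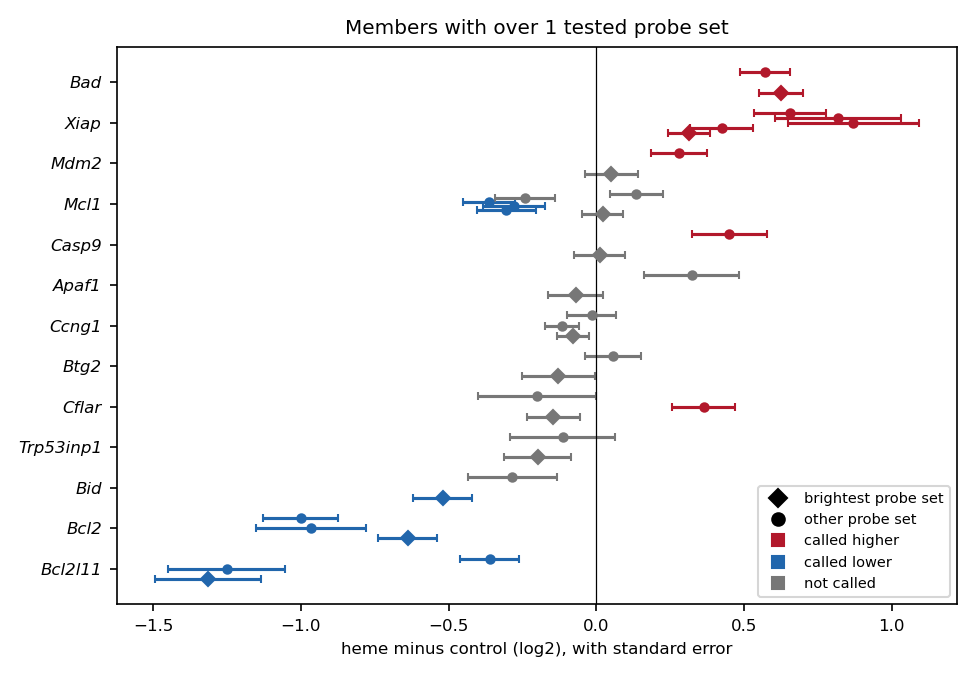
Log2 difference (heme minus control) with its standard error for every tested probe set of the 13 genes with more than 1; a diamond marks the brightest probe set and colour marks the call. Both probe sets of Bad lie to the right of 0, at 0.63 and 0.57, while the probe sets of Mcl1 and Cflar lie on both sides of 0.

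Further genes of both routes and of the p53 pathway came from 4 lists chosen by function. Their shares are set beside the 27.2% higher and 26.4% lower of all tested genes. Of 6 tested p53 regulators 2 rose and 2 fell, 33.3% each. The kinase gene Atm, which activates p53 after double-strand breaks, fell by 0.72 (SE 0.09), and Mdm4, the partner of MDM2, by 0.64 (SE 0.08), each with all 9 heme mice below all controls. The checkpoint kinase gene Chek2 rose by 0.67 (SE 0.10) with all 9 above. The highest adjusted p of these 3 was 3.93e-05 (limma).

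Of 16 further p53 targets tested, 5 rose, 5 fell and 6 were not called, with a median difference of -0.01; 31.2% were called in each direction. Cdkn1a, the p21 inhibitor of cyclin-dependent kinases, was at 11.70 ± 0.11 in heme mice and 11.28 ± 0.18 in control mice (SD, n = 9 and 6). It rose by 0.42 (SE 0.08, adjusted p = 3.06e-04, limma). Ddit4, an inhibitor of mTORC1 that hypoxia and glucocorticoids also induce, rose by 1.15 (SE 0.28, adjusted p = 0.00303, limma). Sesn1, a stress protein related to Sesn2, fell by 0.88 (SE 0.16, adjusted p = 3.18e-04, limma), and the lesion-bypass polymerase gene Polk by 0.61 (SE 0.13, adjusted p = 0.00119, limma). p53 targets thus went both ways in each list, and Sesn2 itself stayed under the floor, between 3.51 and 4.04 in heme mice and between 3.53 and 3.79 in control mice.

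Of 14 further genes that promote apoptosis 8 rose (57.1%) and 1 fell (7.14%), with a median difference of 0.29. The gene that fell was Bmf, a BH3-only gene, at 5.28 ± 0.31 in heme mice and 6.43 ± 0.42 in control mice (SD, n = 9 and 6). Bmf fell by 1.15 (SE 0.17, adjusted p = 6.07e-05, limma), with no overlap. Of the other BH3-only genes tested as members, Bcl2l11, Pmaip1, Bid and Bbc3 fell, while Bad rose by 0.63, also with no overlap. Bnip3, a mitochondrial protein of hypoxia and mitophagy, rose by 0.72 (SE 0.17, adjusted p = 0.00222, limma), and the BAX relative Bok by 0.46 (SE 0.11, adjusted p = 0.00187, limma). Of 10 further genes that oppose apoptosis 1 rose (10%) and 4 fell (40%), with a median of -0.07. The one that rose was Birc5 (survivin), at 10.20 ± 0.17 in heme mice and 8.86 ± 0.41 in control mice (SD, n = 9 and 6), a gene that also acts in mitosis. Naip2, an inflammasome sensor with IAP repeats, fell by 0.41 (SE 0.09, adjusted p = 0.00126, limma), and Bfar, of the endoplasmic reticulum, by 0.25 (SE 0.06, adjusted p = 0.00168, limma). The rise of Birc5 stands beside that of the dividing-cell markers, all 11 of which rose.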

How the data were processed

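Labelled RNA of 15 colon scrapings was hybridised to Affymetrix mouse arrays, 1 per mouse. Per the submitters' processing notes, the authors used GCRMA 2.22.0, a method of background correction, quantile normalization and probe summary. What they deposited is log2 expression, 1 value per probe set and array, with no detection calls. The number of arrays limits the precision of the differences between the groups. Of the probe sets 34958 had 1 symbol, 932 several and 9211 none listed here. The brightest probe set by mean stood for a gene, and 9257 of 18194 genes (signal above 20 in 6 or more arrays) were tested with limma 3.58.1 (lmFit, eBayes) in R 4.3.3, Benjamini-Hochberg adjusted, threshold 0.05. The procedure was tested on simulated data, and the outcome is not reported here. Each list is described by counts and its median. All 37 genes are named, and of each further list the 3 largest called changes; the rule also named Cdkn1a and 1 other gene, which is not reported here. Other features were picked after their values were seen. The genes, lists and alternatives were chosen with earlier results of these data known. Heme and control share 6 replicate numbers. Deviations of same-numbered mice correlated over 0.1 in 1 of 6 pairs, too few pairs to settle whether the numbers pair the mice. The main test left the mice unpaired. Alternatives covered the filter, probe set rule, scaling, variance model, weights, block, array number, mice left out and composition scores.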

Additional observations from a re-analysis of the deposited data

Results flagged for a closer look

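In a group of 6 or 9 mice a single value far from the others was looked for in the 28 tested genes, 56 groups in all, and chance flags about 1 group in 20. In 2 groups, no more than that rate gives, 1 mouse stood apart, both times heme mouse 6 as the highest. Tnfsf10 (TRAIL) was at 6.19 in heme mouse 6, against 4.04 to 5.00 in the other 8 heme mice. Bcl2 was at 5.84 in heme mouse 6, against 5.49 to 5.64 in the others. Heme mouse 6 also had the highest interferon-induced mean of all mice (8.72). Its part in both values was not tested. Without heme mouse 6 the difference was -1.06 for Tnfsf10 and -0.67 for Bcl2 (adjusted p = 4.68e-04 and 5.15e-05, limma). Leaving out the highest heme value must enlarge a fall, so these values are no check of either call.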

How the results depend on the processing

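With 1 mouse left out at a time, 5 to 6 genes were higher and 10 to 12 lower. At a floor of 100, where 21 of the 28 genes were tested, 5 were higher and 6 lower. All 21 kept their result. Plk2, Fas, Tnfsf10, Bbc3, Bcl2l11, Bcl2 and Bcl2l1, genes of low signal, left the test there, so the lower count shrank without a lost call. With the smooth muscle mean as a covariate 3 were higher and 9 lower; Ei24, Perp, Pmaip1, Birc3, Bcl2l1 and Xiap lost their call, and the cause was not tested. With the replicate number as a block 5 were higher and 10 lower, and Ei24, Birc3 and Bcl2l1 lost their call. Heme mice 5, 8 and 9 have no control of the same number here, so the blocked difference rests on the 6 shared numbers. Fewer mice and the block cannot be told apart in these lost calls. Whether same-numbered mice share more than the number is not known. The lymphocyte mean (Gzma and Ccl5, both averaging under the floor in heme mice) correlated with diet at -0.98, so as a covariate it and the diet cannot be told apart: limma called 0 genes higher and 0 lower (3 and 2 at an unadjusted p under 0.05), and the median SE was 0.46 in place of 0.09. Under it the sign changed for Fas (1.12), Tnfsf10 (2.42), Bbc3 (0.074), Casp1 (0.65), Bcl2l1 (-0.20), Btg2 (0.33), Casp9 (-0.18), Mcl1 (-0.27) and Cflar (0.25). Apart from that covariate, the 18 called genes kept their sign under all alternatives run, and 12 kept their call wherever they were tested. Ei24 also lost its call with no filter (adjusted p = 0.0709), centred arrays (0.156), array weights (0.0698) and the distal Hox mean (0.0853), and Birc3 with no filter (0.0586) and centred arrays (0.0579). Apart from it, too, sign changes were limited to uncalled genes near 0. With the smooth muscle mean Mdm2 was at -0.10, Zmat3 at 0.10, Casp6 at -0.23 and Casp9 at -0.032. Without control mouse 2 and heme mouse 6 Mdm2 was at -0.0057, Zmat3 at 0.016 and Casp9 at -0.013, and without control mouse 4 too Mdm2 was at -0.0099, Casp9 at -0.014 and Mcl1 at -0.0084. Zmat3 was at 0.0037 with centred arrays, Casp9 at -0.034 with array weights and -0.021 with the block, and Mcl1 at -0.029 with quantile normalization and -0.035 with the distal Hox mean. With probe sets averaged Apaf1 was at 0.13, Mcl1 at -0.17 and Casp9 was called higher (0.19). With mice left out singly Mdm2 ran from -0.024 to 0.12, Casp9 from -0.039 to 0.051 and Mcl1 from -0.029 to 0.059.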
